A study of Mus musculus with 14 samples.

Results

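Adipocyte genes were followed across whole uteri of mice by 10 genes that fat cells use to make hormones and to store and release lipid: Adipoq, Retn, Lep, Fabp4, Cidec, Plin1, Lipe, Scd1, Cfd and Pparg. Each was read from the probe sets (the sets of short probes that report 1 transcript on the array) whose single gene symbol in the platform annotation was the listed gene. Of the 10 genes, 8 had such a probe set, 13 probe sets in all, out of 18193 genes with 1 symbol. Plin1 and Cfd were not analysed here. A gene counted as measured when its mean log2 signal over all arrays lay at or above the median of all probe sets, a signal of 134. Adipoq, Retn, Scd1, Lipe and Fabp4 were measured, 5 of the 11269 genes that were, and Pparg, Lep and Cidec lay below that level and are given as values with less certainty.

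The uteri were taken at day 3.5 of gestation from C57BL/6 females, and RNA of each was read on 1 one-colour Affymetrix array. The groups were Folr4-/- females given folinic acid (n = 4), Folr4-/- females given saline (n = 3), wild-type females given folinic acid (n = 3) and wild-type females given saline (n = 4). Folr4, now named Izumo1r, encodes a member of the folate receptor family that serves as the egg's receptor for sperm, and folinic acid is a reduced folate. The dose was 12.5 mg/kg into the peritoneum on 2 days, the first 10 days and the second 3 days ahead of mating. The mutation is carried in every tissue, so a difference between genotypes need not arise in the uterus, and the labels do not describe the allele further. All groups were labelled day 3.5 of gestation, on the same chow diet and of the same background strain, and the ages of the females are not stated there. Whether the females carried embryos was not tested.

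White adipocytes store triglyceride in a large droplet and release fatty acids and protein hormones. The nuclear receptor Pparg drives their differentiation together with C/EBP factors, and most of the genes followed here are among its known targets. The mouse uterus hangs in the mesometrium, a fold of peritoneum that carries fat beside the uterine vessels. Whole-tissue RNA cannot tell fewer cells of a type from less RNA per cell. The labels do not say how closely fat was trimmed from the dissected uteri.

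The labels call the replicates biological, and p-values measure only the spread between these arrays. The median signal of an array lay between 130.0 and 157. The ratio of 3' to 5' control probe sets, a measure of RNA integrity and of labelling, was 1.54 to 3.64 for actin and 1.14 to 2.48 for Gapdh. One array stood apart on the adipocyte genes, wild-type saline replicate 2, with the lowest mean log2 signal of the 5 measured genes (7.22, against a median of 10.2 and a highest value of 12.16 in wild-type folinic acid replicate 3). Its actin and Gapdh ratios, 2.21 and 1.68, lay inside the range of the others. Most correlations and group medians are therefore given with and without it. The titles of wild-type saline replicates 2 and 3 share a number, as do those of wild-type folinic acid replicates 1 and 2, and its meaning is not stated. The Folr4 probe set lay below the filter and did not separate the genotypes, with 6.14, 11.4 and 70.2 as the lowest, median and highest signal in 7 mutant arrays and 13.5, 46.9 and 72.4 in 7 wild-type arrays.

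The promoters of the 3 genes that varied most widely over the arrays and had an entry in the promoter table are shown, to let their sequences be set beside signals that moved together. They come from RefSeq's GRCm38.p6 assembly, run 250 bases before to 50 bases after the annotated start, and read 5' to 3'. Capitals mark the CCAAT box, on this strand or as its complement ATTGG.
Adipoq, chr16:23146286-23146585, plus strand: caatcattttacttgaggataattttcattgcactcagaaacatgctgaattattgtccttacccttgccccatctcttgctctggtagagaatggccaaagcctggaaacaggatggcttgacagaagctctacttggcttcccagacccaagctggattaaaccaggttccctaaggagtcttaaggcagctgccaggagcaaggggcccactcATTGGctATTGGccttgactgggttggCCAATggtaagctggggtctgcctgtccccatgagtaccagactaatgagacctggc
Retn, chr8:3655520-3655819, plus strand: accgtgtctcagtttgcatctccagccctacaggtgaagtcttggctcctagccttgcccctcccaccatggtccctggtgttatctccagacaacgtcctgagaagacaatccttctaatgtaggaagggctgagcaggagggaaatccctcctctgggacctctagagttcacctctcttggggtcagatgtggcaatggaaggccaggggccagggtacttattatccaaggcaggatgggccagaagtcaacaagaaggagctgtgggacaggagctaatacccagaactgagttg
Cidec, first start, chr6:113435711-113436010, minus strand: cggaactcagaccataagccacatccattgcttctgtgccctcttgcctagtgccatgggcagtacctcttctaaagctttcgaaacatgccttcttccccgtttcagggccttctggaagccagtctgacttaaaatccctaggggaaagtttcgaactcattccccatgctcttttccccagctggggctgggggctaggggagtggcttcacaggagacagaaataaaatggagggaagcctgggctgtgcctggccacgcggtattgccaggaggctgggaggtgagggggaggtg
Cidec, second start, chr6:113434715-113435014, minus strand: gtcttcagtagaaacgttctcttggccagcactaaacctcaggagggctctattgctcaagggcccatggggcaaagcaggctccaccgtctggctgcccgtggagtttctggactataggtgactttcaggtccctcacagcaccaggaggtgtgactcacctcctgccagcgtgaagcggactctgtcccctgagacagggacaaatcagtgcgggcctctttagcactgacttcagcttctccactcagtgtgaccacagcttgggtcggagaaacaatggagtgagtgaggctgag
Of the 10 genes, 8 had an entry, with 12 windows. Searched on both strands were CCAAT, the TATA box TATAAA, the nuclear receptor motif AGGTCA, and a direct repeat of AGGTCA with 1 base between, the arrangement that Pparg binds with its partner Rxr. The Adipoq window held 3 CCAAT boxes, with first bases at -34, -27 and -7 from the start and none overlapping another. CCAAT was in 37.41% of the 32851 windows in the table. The Retn window and both Cidec windows held none of these motifs. TATAAA stood in 13.62% of all windows, AGGTCA in 16.26% and the direct repeat in 0.03957%. The 3 promoters therefore showed no shared match among these motifs in these windows.

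Adipoq encodes adiponectin, a hormone made almost solely by fat cells. Its signal was 563, 1956, 1538 and 729 in the Folr4-/- folinic acid arrays and 481, 1375 and 4069 in the Folr4-/- saline arrays. It was 1774, 1308 and 5332 in the wild-type folinic acid arrays and 4861, 67.0, 2985 and 1395 in the wild-type saline arrays. The highest and the lowest of the 14 arrays were both wild type, and all 4 groups overlapped. The highest array was 79.6 times the lowest. The extremes inside the wild-type saline group alone were 72.6 times apart, against 3.48 times inside the mutant folinic acid group. Both larger ratios rest on wild-type saline replicate 2, at 67.0. The other arrays of that group ran from 1395 to 4861. The signal averaged 1197 ± 662 in mutant folinic acid uteri, 1975 ± 1868 in mutant saline uteri, 2805 ± 2201 in wild-type folinic acid uteri and 2327 ± 2068 in wild-type saline uteri (SD, n = 4, 3, 3 and 4).

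Retn encodes resistin, a hormone that mouse white adipocytes secrete. Its signal was 324, 848, 824 and 447 in the Folr4-/- folinic acid arrays and 385, 525 and 2061 in the Folr4-/- saline arrays. In the wild-type folinic acid arrays it was 1068, 629.9 and 5174, and in the wild-type saline arrays 1962, 17.9, 1281 and 509. The same arrays were at the extremes as for Adipoq, wild-type folinic acid replicate 3 at the top and wild-type saline replicate 2 at the bottom, and the groups overlapped. The ratio of highest to lowest was 289.8. Lep, the satiety hormone leptin, lay below the filter, at 2.82, 8.22, 6.80 and 3.39 in mutant folinic acid uteri, 18.2, 18.9 and 8.60 in mutant saline uteri, 6.00, 6.65 and 151 in wild-type folinic acid uteri, and 54.7, 4.99, 32.4 and 28.6 in wild-type saline uteri. Its highest value was again in wild-type folinic acid replicate 3, while its lowest values were in the mutant folinic acid group. The 4 mutant folinic acid arrays all lay below the 3 mutant saline arrays for Lep, the only one of 32 pairings of a gene with a pair of groups (8 genes by their main probe set, 4 comparisons) in which 2 groups did not overlap, as 5% of all probe sets did not in that comparison and direction without a filter.

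Fabp4 encodes the fatty acid carrier of adipocytes, which macrophages and some endothelial cells make as well. Its signal was 995, 4843, 3772 and 1537 in the Folr4-/- folinic acid arrays and 924, 1666 and 11916 in the Folr4-/- saline arrays. It was 4824, 1773 and 15563 in the wild-type folinic acid arrays and 7299, 188, 6534 and 2494 in the wild-type saline arrays. The groups overlapped, the ends were held by the same 2 wild-type arrays as for Adipoq and Retn, and the ratio of highest to lowest was 82.9. Cidec encodes a protein of the droplet surface that fuses small droplets into larger ones, and its probe set lay below the filter. It had signals of 41.0, 275, 115 and 36.7 in mutant folinic acid uteri, 81.3, 63.5 and 423 in mutant saline uteri, 215, 78.3 and 1017 in wild-type folinic acid uteri, and 426, 1.06, 255 and 89.4 in wild-type saline uteri. The order of arrays at the ends was again that of Adipoq, with a highest value 959 times the lowest, a ratio that rests on a value just above the floor of 1.

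Scd1 encodes stearoyl-CoA desaturase, which makes monounsaturated fatty acids in adipocytes and in other lipid-forming cells. Its signal was 1473, 4515, 2545 and 1609 in the Folr4-/- folinic acid arrays and 1758, 1597 and 7232 in the Folr4-/- saline arrays. It was 5529, 2049 and 10321 in the wild-type folinic acid arrays and 3239, 1095, 5899 and 2205 in the wild-type saline arrays. The same arrays were highest and lowest, but the ratio between them, 9.43, was smaller than for Adipoq, Retn or Fabp4. A second measured Scd1 probe set gave 161 to 196 in mutant folinic acid uteri, 105.0 to 269 in mutant saline uteri, 199 to 329 in wild-type folinic acid uteri and 98.2 to 396 in wild-type saline uteri.

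Lipe encodes hormone-sensitive lipase, which releases fatty acids from the droplet and is also made by steroid-forming cells. It was nearly flat, at 332, 292, 305 and 348 in the Folr4-/- folinic acid arrays, 239.9, 362 and 369 in the Folr4-/- saline arrays, 326, 525 and 461 in the wild-type folinic acid arrays, and 426, 304, 443 and 251 in the wild-type saline arrays. Its highest value was 2.19 times its lowest, and wild-type saline replicate 2 was not its lowest array. Pparg, the nuclear receptor at the head of the program, lay below the filter. Its signal was 77.0, 110.2, 59.5 and 39.7 in mutant folinic acid uteri, 7.20, 32.0 and 88.6 in mutant saline uteri, 47.2, 66.5 and 99.1 in wild-type folinic acid uteri, and 73.9, 18.6, 76.2 and 34.7 in wild-type saline uteri. Wild-type saline replicate 2 was the second lowest of the 14 arrays for Pparg, and the groups overlapped.

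**Figure D1:**
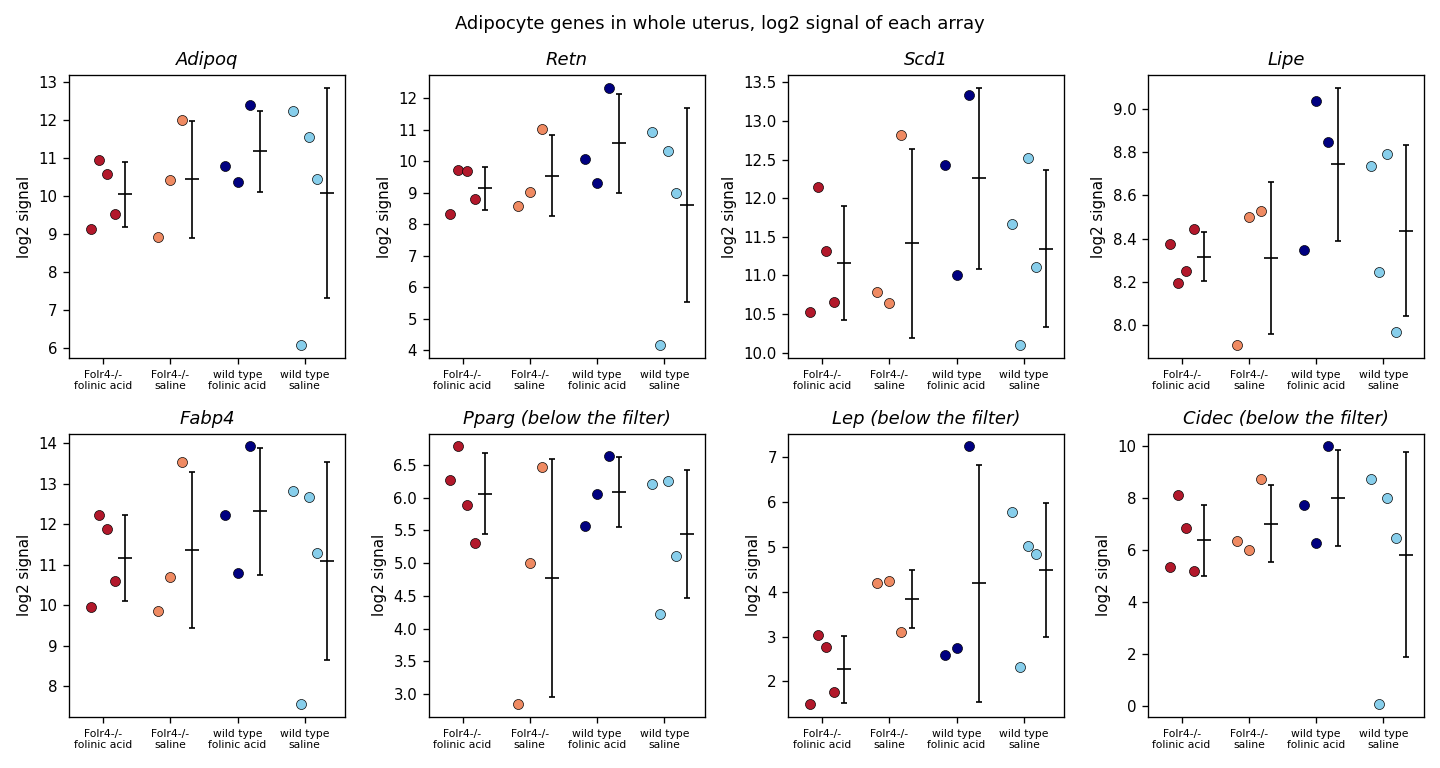
Log2 signal (vertical axis) of the 8 adipocyte genes on each array, by group, with points for arrays and a bar for the mean ± SD of the group (n = 4, 3, 3 and 4). The wild-type saline array with an Adipoq signal of 67.0 lies far below the other arrays for Adipoq, Retn, Fabp4 and Cidec, and Lipe stays within 2.19-fold over all arrays.

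The spread within groups was measured as the pooled SD of log2 signal around the group means, which was 0.29 for the median of 22519 probe sets above the filter. It was 1.95 for Retn, rank 10 from the top of all those probe sets, 1.84 for Fabp4 (rank 15) and 1.80 for Adipoq (rank 17). Scd1 had 1.02 (rank 169) and Lipe 0.32 (rank 9566). Group membership accounted for 7.81% of the variance of Adipoq, 8.44% of that of Fabp4, 15.4% of that of Retn, 17.9% of that of Scd1 and 27.8% of that of Lipe, against a median of 20.6% over all probe sets. Most of the variance of the 3 most variable genes thus lay between uteri of the same group, with all arrays. Wild-type saline replicate 2 was the lowest array for all 3, and these SDs, ranks and shares are not given without it. Leaving it out lowered the SE of the difference between mutant and wild-type saline uteri. That SE went from 1.12 to 0.73 for Adipoq, from 1.22 to 0.75 for Retn and from 1.15 to 0.91 for Fabp4. The second measured probe sets of Fabp4 and Scd1 had within-group SDs of 1.5 and 0.59.

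The genes moved together from array to array. Over the 14 arrays the log2 signal of Adipoq was correlated with that of Retn at Pearson's r = 0.97 and Spearman's rho = 0.97, with that of Fabp4 at 0.97 and 0.99, and with that of Cidec at 0.96 and 0.94. For these 3 genes both permutation p-values were 1e-05, the smallest that 100000 resamples can give, and the adjusted p over the 7 relations computed was 2.33e-05. Scd1 followed at r = 0.80 (permutation p = 0.00027, adjusted 0.000472) and rho = 0.91 (permutation p = 4e-05, adjusted 7e-05). Pparg reached r = 0.67 (permutation p = 0.0145, adjusted 0.0203) and rho = 0.70 (permutation p = 0.00753, adjusted 0.0105), and Lep r = 0.58 (permutation p = 0.0300, adjusted 0.0350) and rho = 0.67 (permutation p = 0.0104, adjusted 0.0121). Lipe did not pass, with r = 0.48 (permutation p = 0.0811, adjusted 0.0811) and rho = 0.49 (permutation p = 0.0797, adjusted 0.0797). The genes were chosen with earlier results of these data known, so the p-values describe these arrays and are not an independent test of covariation.

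Leaving out the 2 arrays farthest from the median Adipoq signal, wild-type saline replicate 2 and wild-type folinic acid replicate 3, r was 0.95 for Retn, 0.94 for Fabp4, 0.89 for Cidec and 0.78 for Scd1. The relation of Lep missed the threshold over those 12 arrays (r = 0.51, adjusted permutation p = 0.107). Pparg had r = 0.61 (adjusted permutation p = 0.0423), but its rho of 0.55 no longer passed (adjusted permutation p = 0.0951), and Lipe had r = 0.46. Without wild-type saline replicate 2 alone, r was 0.93 for Retn, 0.96 for Fabp4, 0.91 for Cidec, 0.83 for Scd1, 0.64 for Pparg, 0.64 for Lep (adjusted permutation p = 0.0222) and 0.54 for Lipe. Except for Lipe, the relations also stood within groups, from each array's deviation from its group mean. There r was 0.98 for Retn, 0.97 for Fabp4, 0.96 for Cidec, 0.79 for Scd1, 0.78 for Pparg and 0.66 for Lep. Lipe had r = 0.43 within groups and did not pass (adjusted permutation p = 0.279).

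The measures of RNA integrity showed no relation to Adipoq that passed a test. Its r with the actin ratio was 0.07 (permutation p = 0.829) with rho = 0.14 (permutation p = 0.639), and its r with the Gapdh ratio was -0.09 (permutation p = 0.778) with rho = -0.08 (permutation p = 0.786), both adjusted p-values of r being 0.829. Without the 2 farthest arrays these r were 0.07 and -0.04.

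The genes differed in how steeply they followed Adipoq. For each log2 unit of Adipoq, Cidec changed by 1.38 log2 units, Retn by 1.10, Fabp4 by 0.997, Lep by 0.58, Scd1 by 0.49, Pparg by 0.44 and Lipe by 0.10. Without wild-type saline replicate 2 the slopes were 1.18 for Cidec, 1.13 for Fabp4, 0.95 for Retn, 0.94 for Lep, 0.70 for Scd1, 0.60 for Pparg and 0.16 for Lipe. Cidec, Retn and Fabp4 thus stood near or above 1, and Scd1, Pparg and Lipe below it, in both sets of arrays. Among the 28 pairs of the 8 genes, 7 had r of at least 0.9 and 7 had r below 0.5. The pair of Retn and Cidec had 0.98 and that of Scd1 and Fabp4 0.91, whereas that of Pparg and Lep had 0.11.

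**Figure D2:**
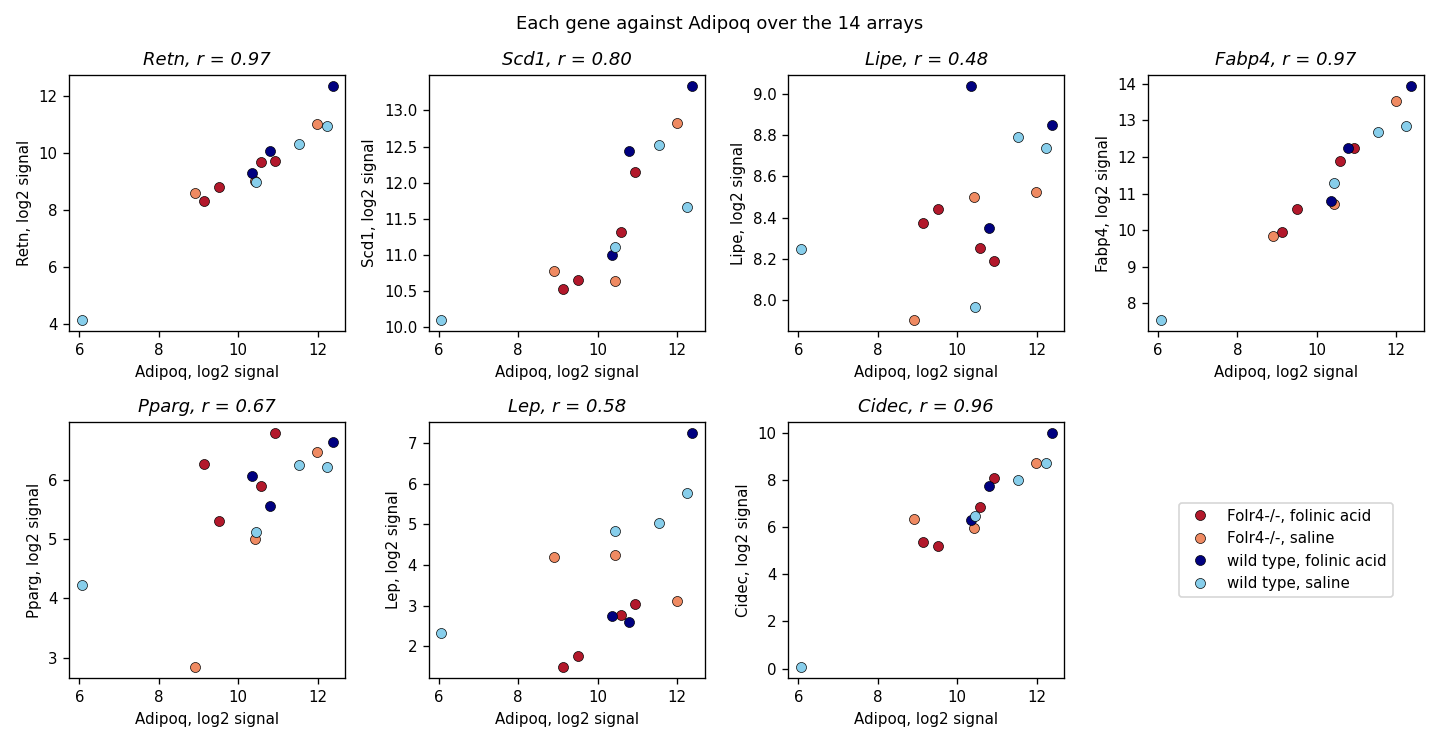
Log2 signal of each of the other 7 genes (vertical axis) against that of Adipoq (horizontal axis), 1 point per array, coloured by group, with Pearson's r over 14 arrays. Retn, Fabp4 and Cidec lie along a line that includes arrays of all 4 groups, and Lipe (r = 0.48) scatters.

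Other probe sets of the same genes were set against Adipoq as well. The second measured Fabp4 probe set had r = 0.93 and the second Scd1 probe set 0.75. A Fabp4 probe set below the filter had 0.71, another 0.50, and a second Lipe probe set below the filter had -0.18. Probe sets of 1 gene therefore disagreed for Fabp4 and for Lipe, with the weak ones all below the filter.

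The genes most like the adipocyte set were looked for among the 11264 other measured genes, by Pearson's r over the 14 arrays with the mean log2 signal of the 5 measured adipocyte genes. Values of 0.9 or more were reached by 2 of those genes and of 0.7 or more by 15. Car3, a carbonic anhydrase abundant in mouse adipocytes, had r = 0.99, with signals from 803 to 23674 and a median of 5394. Cyp2e1, a cytochrome P450 made in liver and in fat, had r = 0.98, with signals from 67.4 to 4089 and a median of 672. Next came the fatty acid transporter Cd36 (0.85), the droplet protein Plin4 (0.85), the growth hormone receptor Ghr (0.85), lipoprotein lipase Lpl (0.83), the retinol carrier Rbp4 (0.82), glycerol-3-phosphate dehydrogenase Gpd1 (0.76), AI839979 (0.74), the zinc transporter Slc39a3 (0.73), the aldehyde dehydrogenase Aldh1a7 (0.73) and the mitophagy receptor Bnip3 (0.72). Car3 and Cyp2e1 were at 803 and 67.4, their lowest signals, in wild-type saline replicate 2, and at 23674 and 4089, their highest, in wild-type folinic acid replicate 3.

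Without wild-type saline replicate 2, Car3 had r = 0.99, Cyp2e1 0.98, Ghr 0.86, Lpl 0.84, Plin4 0.83, Cd36 0.83, Aldh1a7 0.77, Gpd1 0.75 and Rbp4 0.71. AI839979 had 0.62, Bnip3 0.57 and Slc39a3 0.52. Without both farthest arrays these 3 had 0.43, 0.41 and 0.35, while Car3 and Cyp2e1 had 0.98 and 0.98. At the other end stood Spata2 (-0.81), Traf4 (-0.80), Niban3 (-0.79), Fbxo33 (-0.75) and 3110001I22Rik (-0.73). Wild-type saline replicate 2 was the highest of the 14 arrays for all of these but Fbxo33. The order came from a search over all genes, so these values carry no p.

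Wider lists of fat genes followed the adipocyte set in part. Of all 11264 measured genes outside the adipocyte set, 15 had r of at least 0.7. Of 51 measured genes in 3 lists, 6 did: Plin4 of 12 genes of lipid droplets and lipolysis, Cd36, Lpl and Gpd1 of 20 genes of fatty acid uptake and synthesis, and Car3 and Rbp4 of 19 genes of adipocyte identity and signalling. Without wild-type saline replicate 2 the count in these lists was 8, with Mgll, the monoglyceride lipase, at 0.84 (0.39 with all arrays) and Fasn, the fatty acid synthase, at 0.77 (0.58 with all arrays) added to the 6. The count over all genes without that array is not given here. The lists' median r was 0.21, 0.29 and 0.14, against 0.005 over all probe sets above the filter, and 0.22, 0.40 and 0.13 against 0.017 without that array. Over all arrays Me1, the malic enzyme, had r = 0.63, the lipase Pnpla2 0.62 and the regulator Cebpa 0.51, and without that array they had 0.64, 0.68 and 0.45. The most variable genes of these lists had lower r over all arrays. Thrsp, a regulator of fat synthesis, had r = 0.24 over signals from 573 to 7932, pyruvate carboxylase Pcx 0.13, haptoglobin Hp 0.28, Retnla 0.48, Hilpda -0.29 and Fabp5 0.04. Without wild-type saline replicate 2, Thrsp had 0.54, Pcx 0.34, Hp 0.12, Retnla 0.40, Hilpda -0.043 and Fabp5 -0.059. Below the filter, the highest r in these lists were 0.94 for Pck1, 0.80 for Trarg1, 0.80 for Adig and 0.75 for Orm1. The other genes of these lists below the filter ran from 0.65 down to -0.026. Pck1, Trarg1 and Orm1 had their lowest signals, 12.2, 11.4 and 3.14, in wild-type saline replicate 2. Their r without that array is not given here.

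Lists of 13 other cell types or tissues held no measured gene with r of 0.7 or more, with or without wild-type saline replicate 2. With all arrays, 15 of the 11264 other measured genes reached 0.7, so a count of 0 in lists of this size is near that share. The median r was 0.16 for 4 brown fat genes, -0.13 for 7 preadipocyte genes, 0.25 for 9 mesothelial genes, 0.04 for 10 epithelial genes, 0.08 for 10 stromal genes, -0.004 for 8 smooth muscle genes, -0.07 for 9 endothelial genes, 0.06 for 7 macrophage and leukocyte genes and 0.21 for 3 ovary and oviduct genes. Nerve (0.19) had 2 measured genes, skeletal muscle (-0.12) 1 and blood (0.33) 1, and none of the B cell genes of lymph nodes was measured. Without that array the medians were 0.18 for brown fat, -0.0035 for preadipocytes, 0.28 for mesothelium, 0.052 for epithelium, 0.17 for stroma, -0.30 for smooth muscle, -0.088 for endothelium, -0.17 for macrophages and leukocytes, 0.35 for ovary and oviduct, -0.069 for nerve, 0.054 for skeletal muscle and 0.44 for blood. Ucp1, the uncoupling protein that defines brown fat, had r = 0.04 and signals from 1.49 to 69.8, below the filter. Cox8b (0.59), Ppargc1a (0.37) and Dio2 (-0.11), the brown fat genes that varied most, did not reach 0.7, and without that array they had 0.33, 0.28 and -0.17. The mesothelial genes Upk3b (0.31), Upk1b (0.26) and Msln (0.14), markers of the outer lining that fat tissue and uterus both carry, were also below it, with 0.28, 0.34 and 0.074 without that array.

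The summed signal of the 5 measured adipocyte genes ran from 3687 to 12455 in mutant folinic acid uteri, from 3787 to 25646 in mutant saline uteri, from 6284 to 36850 in wild-type folinic acid uteri and from 1671 to 17787 in wild-type saline uteri, 22.1-fold in all. Over the same arrays the summed stromal signal differed by 1.44-fold, the endothelial by 1.37-fold, the smooth muscle by 1.98-fold, the epithelial by 2.10-fold, the mesothelial by 2.36-fold and the macrophage by 5.60-fold. The 22.1-fold of the adipocyte genes rests on wild-type saline replicate 2, at 1671, and the next lowest array stood at 3687. The fold without that array is not given here. Lists with few measured genes also had wide spreads, all below 22.1-fold with all arrays. These were ovary and oviduct at 9.0-fold (3 genes), brown fat at 6.73-fold (4 genes), skeletal muscle at 4.92-fold (1 gene) and blood at 4.31-fold (1 gene). Preadipocytes and nerve had 2.08-fold and 1.83-fold. The wider fat lists differed by 1.25-fold (lipid droplets and lipolysis), 1.85-fold (fatty acid uptake and synthesis) and 2.33-fold (identity and signalling). Wild-type saline replicate 2 was lowest of 14 arrays for the adipocyte genes and for the identity and signalling list. It ranked 2 from the lowest for nerve and 3 for macrophages, 5 for epithelium, for smooth muscle and for lipid droplets and lipolysis, and 7 for mesothelium and for brown fat. It ranked 8 for blood, 9 for stroma and for endothelium, 11 for preadipocytes and for fatty acid uptake and synthesis, 12 for skeletal muscle and 13 for ovary and oviduct. How much fat was dissected with each uterus was not tested.

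**Figure D3:**
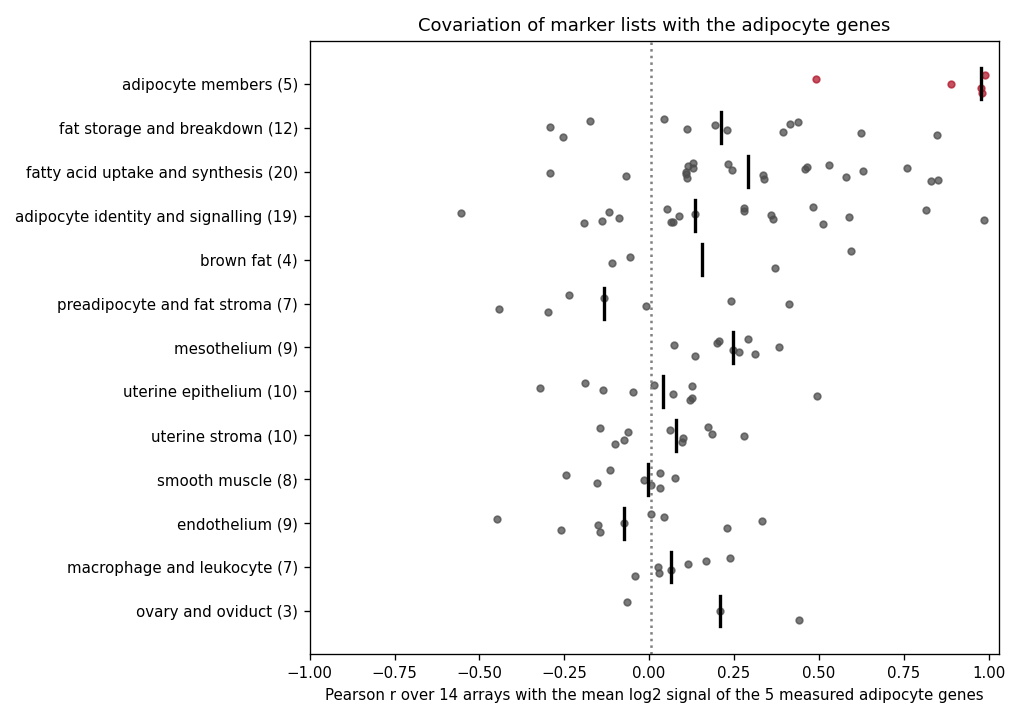
Pearson's r over 14 arrays (horizontal axis) of each measured gene with the mean log2 signal of the 5 measured adipocyte genes, by list, with the number of genes in brackets, a black bar at each list's median and a dotted line at the median of all probe sets (0.005). The adipocyte genes themselves are part of that mean, which raises their r, and the genes of the other lists are not. Single genes of the 3 wider fat lists reach 0.7 or more, and no gene of the lists of other cells does, where 15 of all 11264 measured genes outside the adipocyte set do.

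The first comparison asks whether the mutation changed these genes without the supplement. Mutant saline against wild-type saline uteri differed by 0.37 ± 1.12 (log2, SE) for Adipoq, 0.94 ± 1.22 for Retn, 0.28 ± 1.15 for Fabp4, 0.07 ± 0.65 for Scd1 and -0.12 ± 0.24 for Lipe. None of the 5 passed limma's test (adjusted p = 0.9998 for each), where 0.00444% of all probe sets did, a single probe set of Erdr1, and 0 of 5 had an unadjusted p under 0.05, against 3.11% of all. Their groups overlapped in 5 of 5 genes, while 2.06% of probe sets did not overlap upward and 2.36% downward. The median of the 5 was 0.28, with 4 higher and 1 lower, against -0.02 for all probe sets, and 0.17 over the 8 genes without a filter. The sign of this median changed with single arrays: it was -0.54 without wild-type saline replicate 2, -0.41 without mutant saline replicate 3, and 1.04, 0.45, 0.86 and 0.81 without mutant saline replicates 1 and 2 and wild-type saline replicates 1 and 3. With arrays weighted by their quality in limma it was -0.15. Below the filter, Cidec stood at 1.20 ± 1.53, Pparg at -0.68 ± 0.74 and Lep at -0.64 ± 1.07 (adjusted p = 0.9991 for each).

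The second comparison asks the same among females given folinic acid. Mutant against wild-type uteri differed by -1.13 ± 1.12 for Adipoq, -1.43 ± 1.22 for Retn, -1.15 ± 1.15 for Fabp4, -1.10 ± 0.65 for Scd1 and -0.43 ± 0.24 for Lipe. None passed (adjusted p = 0.9994 for each, 0.00444% of probe sets called) and 0 of 5 had an unadjusted p under 0.05, against 3.81% of all. The median was -1.13, with 5 of 5 on the lower side and 8 of 8 without a filter (median -1.14), while all probe sets had -0.01. The pooled within-group SD of the mean of the 5 genes was 1.31, which is a spread of single arrays and not of a difference between group means. The median was -0.53 when wild-type folinic acid replicate 3 was left out and -1.73 when replicate 2 of that group was. The main probe sets of the 5 genes overlapped between the groups, and 1.89% of all probe sets did not overlap upward and 3.05% downward. The second Scd1 probe set was lower in 4 of 4 mutant uteri (161 to 196) than in 3 of 3 wild-type uteri (199 to 329). Below the filter, Lep stood at -1.92 ± 1.07, Cidec at -1.63 ± 1.53 and Pparg at -0.02 ± 0.74 (adjusted p = 0.99995 for each).

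In wild-type females, folinic acid against saline gave 1.10 ± 1.12 for Adipoq, 1.96 ± 1.22 for Retn, 1.23 ± 1.15 for Fabp4, 0.91 ± 0.65 for Scd1 and 0.31 ± 0.24 for Lipe. None of the 5 passed limma's test (adjusted p = 0.999995 for each), as none of the 22519 probe sets did (0%), and 0 of 5 had an unadjusted p under 0.05, against 2.71% of all. The groups overlapped in 5 of 5 genes, where 2.4% of probe sets did not overlap upward and 2.56% downward. The median was 1.10 with 5 of 5 higher, against 0.006 for all probe sets, and 1.0 with 7 of 8 higher without a filter. It was 0.25 without wild-type saline replicate 2, 0.43 without wild-type folinic acid replicate 3 and 1.81 without wild-type saline replicate 1, and 0.61 with array weights. Without both wild-type saline replicate 2 and wild-type folinic acid replicate 3 it was -0.41, so its sign rested on these 2 arrays. Below the filter, Cidec stood at 2.19 ± 1.53, Pparg at 0.63 ± 0.74 and Lep at -0.30 ± 1.07, which did not pass either. A weak Fabp4 probe set below the filter had signals of 51.1 to 94.2 in folinic acid uteri and 13.3 to 43.7 in saline uteri. The groups did not overlap there, and without a filter the same was true of 2.13% of all probe sets in the upward direction.

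In mutant females, folinic acid against saline gave -0.40 ± 1.12 for Adipoq (limma's adjusted p = 0.918), -0.40 ± 1.22 for Retn (0.924), -0.20 ± 1.15 for Fabp4 (0.963), -0.26 ± 0.65 for Scd1 (0.907) and 0.005 ± 0.24 for Lipe (0.996). None passed, as none of all probe sets did (0%). An unadjusted p under 0.05 was reached by 0 of 5, against 12.8% of all probe sets. The groups overlapped in 5 of 5 genes, where 4.65% of probe sets did not overlap upward and 5.69% downward. The median was -0.26, with 1 higher and 4 lower, against 0.01 for all probe sets and -0.33 over the 8 genes. It was 0.38 without mutant saline replicate 3, -0.88 without mutant saline replicate 1, -0.53 without mutant saline replicate 2, and -0.045, -0.58, -0.44 and -0.088 without mutant folinic acid replicates 1, 2, 3 and 4. Lep stood at -1.58 ± 1.07 without overlap of the groups (adjusted p = 0.647). Pparg stood at 1.29 ± 0.74 (adjusted p = 0.573) and Cidec at -0.64 ± 1.53 (adjusted p = 0.925).

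The interaction asks whether the response to folinic acid differed between genotypes, as the mutant response minus the wild-type response. It was -1.5 ± 1.59 for Adipoq (limma's adjusted p = 0.947), -2.37 ± 1.73 for Retn (0.916), -1.43 ± 1.63 for Fabp4 (0.952), -1.16 ± 0.91 for Scd1 (0.919) and -0.30 ± 0.34 for Lipe (0.949). None passed, as none of all probe sets did (0%), and 0 of 5 had an unadjusted p under 0.05, against 4.9% of all. The median was -1.43, with 5 of 5 on the lower side and 7 of 8 without a filter, against 0.005 for all probe sets. Left out singly, wild-type saline replicate 2 gave -0.25, wild-type folinic acid replicate 3 gave -0.63, mutant saline replicate 3 gave -0.46 and mutant saline replicate 1 gave -2.19. Array weights gave -0.74. Without both of those wild-type arrays it was 0.00094. The 5 comparisons share arrays, so their values for a gene are not independent of each other.

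**Figure D4:**
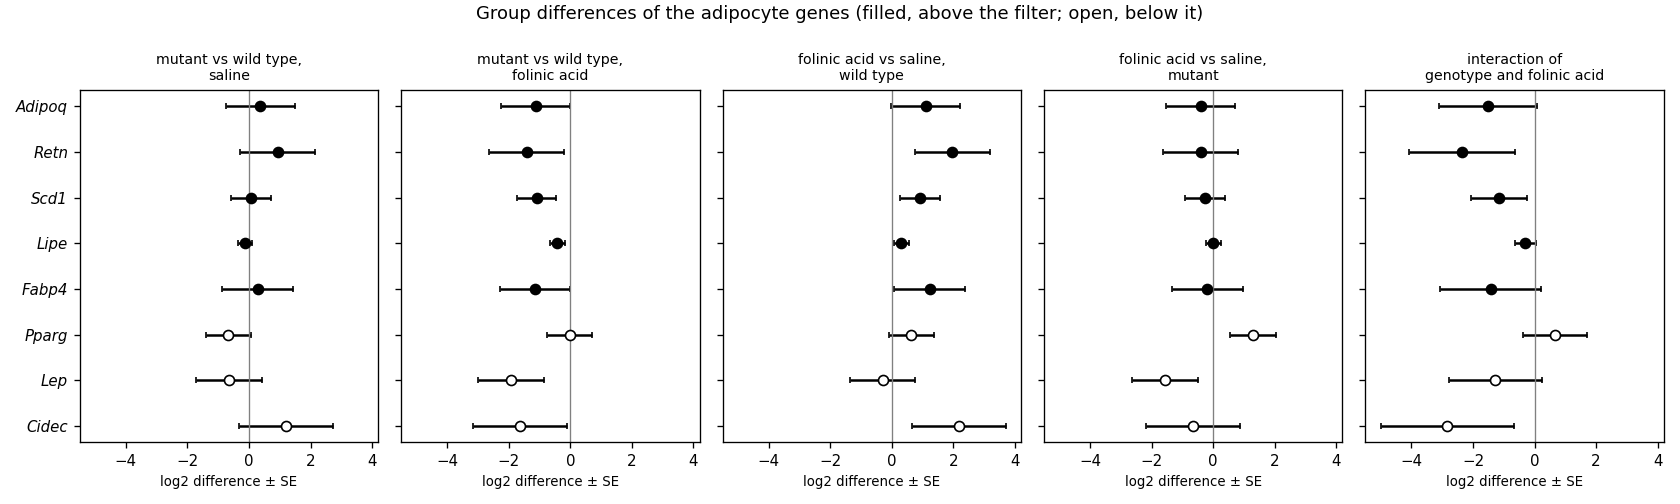
Log2 difference ± SE (horizontal axis) of each adipocyte gene in the 5 comparisons, filled where the gene was above the filter and open where below. The bars of all 5 filled genes cross 0 in the saline comparison of genotypes and in the mutant response, and none of the 5 passed the test in any comparison.

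**Figure D5:**
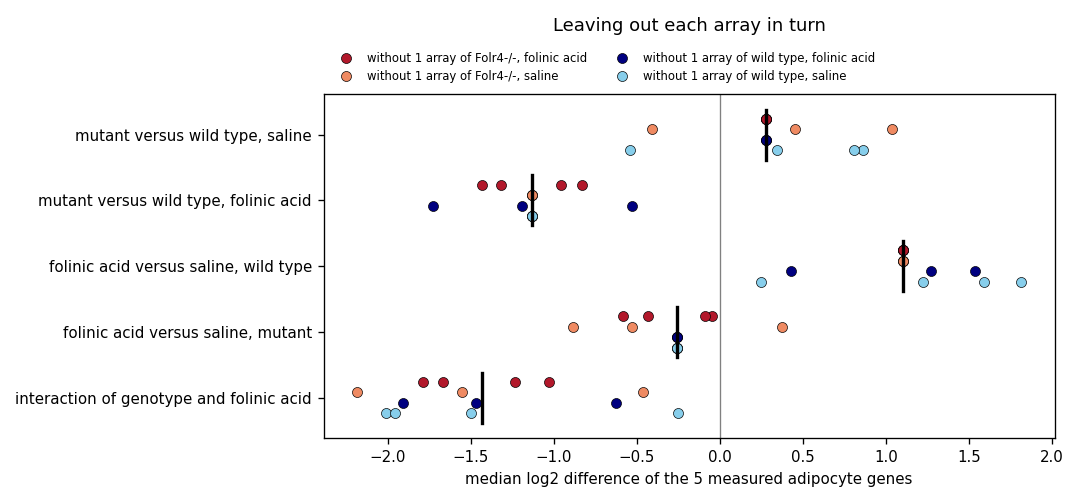
Median log2 difference of the 5 measured adipocyte genes in each comparison with all arrays (black bar) and with each array left out in turn (points, coloured by the group of the array left out). The median crosses 0 in the saline comparison of genotypes (-0.54 to 1.04) and in the mutant response to folinic acid (-0.88 to 0.38).

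Of 122 measured genes in the 16 other lists, none passed limma's test in any of the 5 comparisons. Of the 122, unadjusted p-values under 0.05 numbered 4 between the genotypes under saline (3.11% of all probe sets), 11 between them under folinic acid (3.81%), 7 for folinic acid in wild type (2.71%), 26 for it in mutants (12.8%) and 12 for the interaction (4.9%). Several of the 16 lists lay to 1 side in a comparison. Among females given folinic acid, 8 of 8 smooth muscle genes and 7 of 7 macrophage and leukocyte genes were on the higher side in mutant uteri. In the same comparison 16 of 20 genes of fatty acid uptake and synthesis were on the lower side, with a median of -0.35. Unadjusted p-values under 0.05 were found for 5 of these 20, against 3.81% of all probe sets, among them Pcx (-1.44 ± 0.45), Thrsp (-1.23 ± 0.53) and Fasn (-0.62 ± 0.23), each with an adjusted p of 0.9994. Pcx and Thrsp had r of 0.13 and 0.24 with the mean of the adipocyte genes over the arrays. The 2 genes most like the adipocyte set were on the same side as its median, with Car3 at -1.05 ± 0.87 and Cyp2e1 at -1.42 ± 1.08 in the same comparison (adjusted p = 0.9994 for each), and at 1.07 ± 0.87 and 1.23 ± 1.08 for folinic acid against saline in wild-type uteri. Neither passed the test. Both were picked for their r with the adipocyte genes over these same arrays, so the shared side largely follows from that choice. When the mean of the 5 adipocyte genes was added to the fit as a covariate, an alternative chosen after seeing the data, the number of probe sets called in each comparison was the same as without it. Those counts were at most 1, so they had little room to move and do not show whether the adipocyte signal affects the comparisons.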

How the data were processed

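RNA of whole uterus from 14 mice in 4 groups was read on 1 array each. The authors deposited 1 intensity per probe set on a linear scale, and MAS5 is the tool named in the submitters' processing notes (no version). The mean after trimming 2% at each end was 500.0 on every array, so each had been scaled by 1 factor, and nothing further was normalized. The genome build of the array annotation is not given in the sources used here. Of 45101 probe sets, 64 controls were left out. Signals below 1 (0.505% of values) were raised to 1 and put on the log2 scale. The 22519 probe sets with a mean at or above the median (134) went into limma 3.58.1 (R 4.3.3): 4 group means, variances moderated with a trend, two-sided, Benjamini-Hochberg adjustment over those 22519 in each comparison, threshold 0.05. Genes below that level were read from the same fit without a filter. Precision is limited by the number of arrays. The fit was tested on simulated data. Correlations used scipy 1.17.1 with 100000 two-sided permutations.

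The members and lists were chosen with earlier results of these data known. Named were all 10 members through every probe set of that single symbol (the main one having the highest mean), up to 3 genes of each other list with the largest SD over arrays, the 12 most and 5 least like genes, Folr4, and any gene called; others named for illustration (Mgll, Fasn, Me1, Pnpla2, Cebpa, Pck1, Trarg1, Adig, Orm1, Ucp1) were picked after their values were seen. Promoters come from RefSeq, GRCm38.p6. Alternatives were quantile normalization, an offset of 16, other filters, array weights, a fit to the groups compared only, the replicate number as a block, each array left out, another probe set per gene and, chosen after seeing the data, the members' mean as a covariate and 2 arrays left out together.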

Additional observations from a re-analysis of the deposited data

How the results depend on the processing

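None of the 5 measured adipocyte genes was called in any comparison under any setting run. Counts of all probe sets moved with the processing. Without a filter they were 3 for the genotypes under saline, 2 under folinic acid and 2 for folinic acid in mutants, and 2 for the genotypes under saline when only those groups were fitted. For folinic acid in mutants, array weights gave 103 and leaving out an array gave 0 to 662, with 662 without mutant folinic acid replicate 2, which also gave 2 for the genotypes under saline (1 to 2 over all arrays left out). Signs turned between the genotypes under saline, where array weights gave Adipoq -0.28, Scd1 -0.0441 and Fabp4 -0.31 and the median -0.15, and for Lipe in mutants given folinic acid (-0.0378 with quantile normalization). Without wild-type saline replicate 2 and wild-type folinic acid replicate 3 together, chosen after seeing the data, the genotypes under saline differed by -0.97 (Adipoq), -0.54 (Retn), -0.35 (Scd1) and -0.90 (Fabp4), folinic acid in wild type by -0.84, -0.41, -0.0481 and -0.75 with a median of -0.41, and the interaction was 0.44 (Adipoq), 0.000942 (Retn and the median) and 0.55 (Fabp4). With single arrays left out, the genotypes under saline ran from -0.97 to 1.13 (Adipoq), -0.54 to 1.72 (Retn), -0.64 to 0.46 (Scd1), -0.28 to 0.0779 (Lipe) and -0.90 to 1.04 (Fabp4), with a median from -0.54 to 1.04. For folinic acid in wild type the ranges were -0.24 to 1.82 (Adipoq), 0.48 to 2.74 (Retn), 0.37 to 1.54 (Scd1) and 0.054 to 1.99 (Fabp4), with a median from 0.25 to 1.81. Those of the interaction were -2.27 to -0.16 (Adipoq), -3.14 to -0.88 (Retn) and -2.19 to -0.25 (Fabp4 and the median), and Scd1 there ran from -1.79 to -0.46. Between genotypes under folinic acid they were -1.54 to -0.53 (Adipoq), -2.06 to -0.54 (Retn), -1.73 to -0.56 (Scd1), -0.63 to -0.28 (Lipe) and -1.91 to -0.35 (Fabp4), with a median from -1.73 to -0.53. In mutants the ranges were -1.17 to 0.38 (Adipoq), -0.88 to 0.33 (Retn), -0.64 to 0.45 (Scd1), -0.20 to 0.11 (Lipe) and -0.95 to 0.89 (Fabp4), with a median from -0.88 to 0.38. The relation of Lep to Adipoq missed the threshold with an offset of 16 (r = 0.57, adjusted permutation p = 0.0511) and without the 2 farthest arrays (0.51), and those of the weak probe sets were 0.50 (Fabp4) and -0.18 (Lipe). The replicate numbers showed no sign of pairing between groups. Deviations of same-numbered arrays had a median r of 0.01 (-0.34 to 0.35) over 19 pairs, against -0.02 (-0.47 to 0.47) over 54 others. Pairs inside a group were not compared, and these overlapping ranges cannot exclude a pairing. With the replicate block, Scd1 turned to -0.0584 between the genotypes under saline and the median for folinic acid in mutants was -0.13, with no member called. The causes were not tested. Low signals limit Pparg, Lep and Cidec.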
